A study of Mus musculus with 23 samples.

Results

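CD98 is a complex of 2 proteins at the cell surface, a heavy chain and a light chain. The heavy chain, CD98hc (also called 4F2hc), is encoded by Slc3a2. It brings the complex to the plasma membrane and carries no amino acid itself, while the light chain forms the transport path and sets its substrates. LAT1 (Slc7a5) exchanges large neutral amino acids such as leucine and phenylalanine and is a main route for them through the capillary wall of the brain. LAT2 (Slc7a8) exchanges a broader range of neutral amino acids. The carriers y+LAT1 (Slc7a7) and y+LAT2 (Slc7a6) exchange cationic for neutral amino acids. Asc-1 (Slc7a10) carries small neutral amino acids such as serine and glycine, and xCT (Slc7a11) takes up cystine in exchange for glutamate, a step that feeds glutathione synthesis. The heavy chain and these 6 light chains were taken by symbol, and all 7 were found among the 32285 genes of the deposited table, under the Ensembl identifiers of the same genes in the GRCm38 annotation. The question was which light chain RNA stands beside Slc3a2 RNA in which brain cell, and how both vary with the dosed antibody and its uptake. RNA in the same cells does not measure which proteins are bound to each other.

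On GRCm38 (mm10), Slc3a2 (ENSMUSG00000010095) lies on chromosome 19 from 8706882 to 8723369 on the minus strand. Slc7a5 (ENSMUSG00000040010) lies on chromosome 8 from 121881150 to 121907694, minus strand, and Slc7a6 (ENSMUSG00000031904) on the same chromosome from 106168857 to 106198706, plus strand. Slc7a7 (ENSMUSG00000000958) and Slc7a8 (ENSMUSG00000022180) lie on the minus strand of chromosome 14, from 54369442 to 54417780 and from 54722209 to 54781946. Slc7a10 (ENSMUSG00000030495) lies on chromosome 7 from 35186385 to 35201114, plus strand. Slc7a11 (ENSMUSG00000027737) lies on chromosome 3 from 49892526 to 50443614, minus strand. All are protein-coding genes. Slc7a5 overlaps Gm20388, Slc7a7 overlaps Oxa1l, Slc7a10 overlaps Lrp3, and Slc7a11 overlaps 5 predicted genes. These overlaps were taken without regard to strand, and their effect on the UMI counts was not tested.

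The study asked which brain cells take up antibodies built to cross the capillary wall by binding a receptor there. Mice aged 12 weeks (3.3 months in the labels) received 45 mg/kg of an antibody carrying the dye AF647 through the tail vein and were perfused 24 hours later. The control IgG, DNP02_hIgG1_LALAPG_Alexa647, went to C57BL/6 mice, ATV-TfR to TfR mu/hu KI mice, and ATV-CD98hc to CD98hc mu/hu KI mice, so treatment and genotype cannot be told apart. The labels of both ATVs (antibody transport vehicles) carry the same DNP02 and LALAPG elements as that of the control. Each of 2 pools per treatment joined the dissociated cells of 1 male and 1 female mouse, and live cells of every pool were split by brightness in AF647 into a negative, a low, a medium and a high bin, 4 in all. The gates were the tertiles of the AF647-positive cells of ATV-TfR, applied to all 3 treatments. The AF647-positive share of live cells was about 30% with ATV-TfR, 20% with ATV-CD98hc and 1% with the control. The tissue was brain without olfactory bulbs, cerebellum, pons and medulla, and dissociation was done with inhibitors of transcription and translation. The CD98hc knock-in alters the very gene that encodes the heavy chain. Whether RNA of the humanised allele was counted as Slc3a2 is not given in the sources used here.

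The files held 23 libraries in 12 groups (the control IgG negative bin had replicate 2 alone), with 1861238 to 90307818 UMIs per library. A UMI (unique molecular identifier) marks 1 captured RNA molecule, and levels were not scaled for gene length. How well each gene was captured was not measured, so levels of different genes are set side by side as a description. After filtering, 234026 of 265025 barcodes were kept, clustered without the 7 genes, and named by marker lists as 17 classes. Endothelial-like cells (97526) and astrocyte-like cells (91922) led in number, ahead of microglia-like (11136), oligodendrocyte-like (7181), choroid plexus epithelial-like (4468), pericyte-like (4027), border macrophage-like (3227), fibroblast-like (2922) and smooth muscle-like cells (2243). Each of the other 8 classes held 142 to 887 cells, and 6883 cells (2.94%) stayed unnamed. Levels are UMIs summed per class and pool, as CPM (counts scaled to the total UMIs of the class and pool), for pools with at least 20 cells of the class. Pools add up their bins as sequenced, not by their share of the tissue. The mix of bins differed between treatments, so comparisons of pools compare bins as well as treatments. Control IgG pool 1, without a negative bin, had too few cells of 8 classes, among them astrocyte-like cells. Levels between classes are a description without a test, since classes are clusters of these cells.

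Slc3a2, the heavy chain, was most abundant in endothelial-like cells. Its level there was 598.5 and 503.0 CPM in the control IgG pools and 608.7 and 640.5 CPM in the ATV-TfR pools, the 4 pools without the CD98hc knock-in. Astrocyte-like cells held 262.4 CPM in control IgG pool 2 and 312.6 and 310.9 CPM in ATV-TfR. No endothelial-like pool overlapped any astrocyte-like pool, whereas the ranges of all later neighbours in the order overlapped. Fibroblast-like cells followed with 240.6 to 381.5 CPM, then fenestrated endothelial-like cells with 182.2 to 269.9, microglia-like cells with 170.1 to 227.4, border macrophage-like cells with 144.6 to 235.4 and pericyte-like cells with 140.3 to 179.9 CPM. The lowest medians were those of monocyte or dendritic cell-like cells (59.4 CPM), smooth muscle-like cells (60.2), B cell-like cells (66.0), neuron-like cells (68.7) and oligodendrocyte-like cells (72.0). Slc3a2 was thus found in every class.

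**Figure D1:**
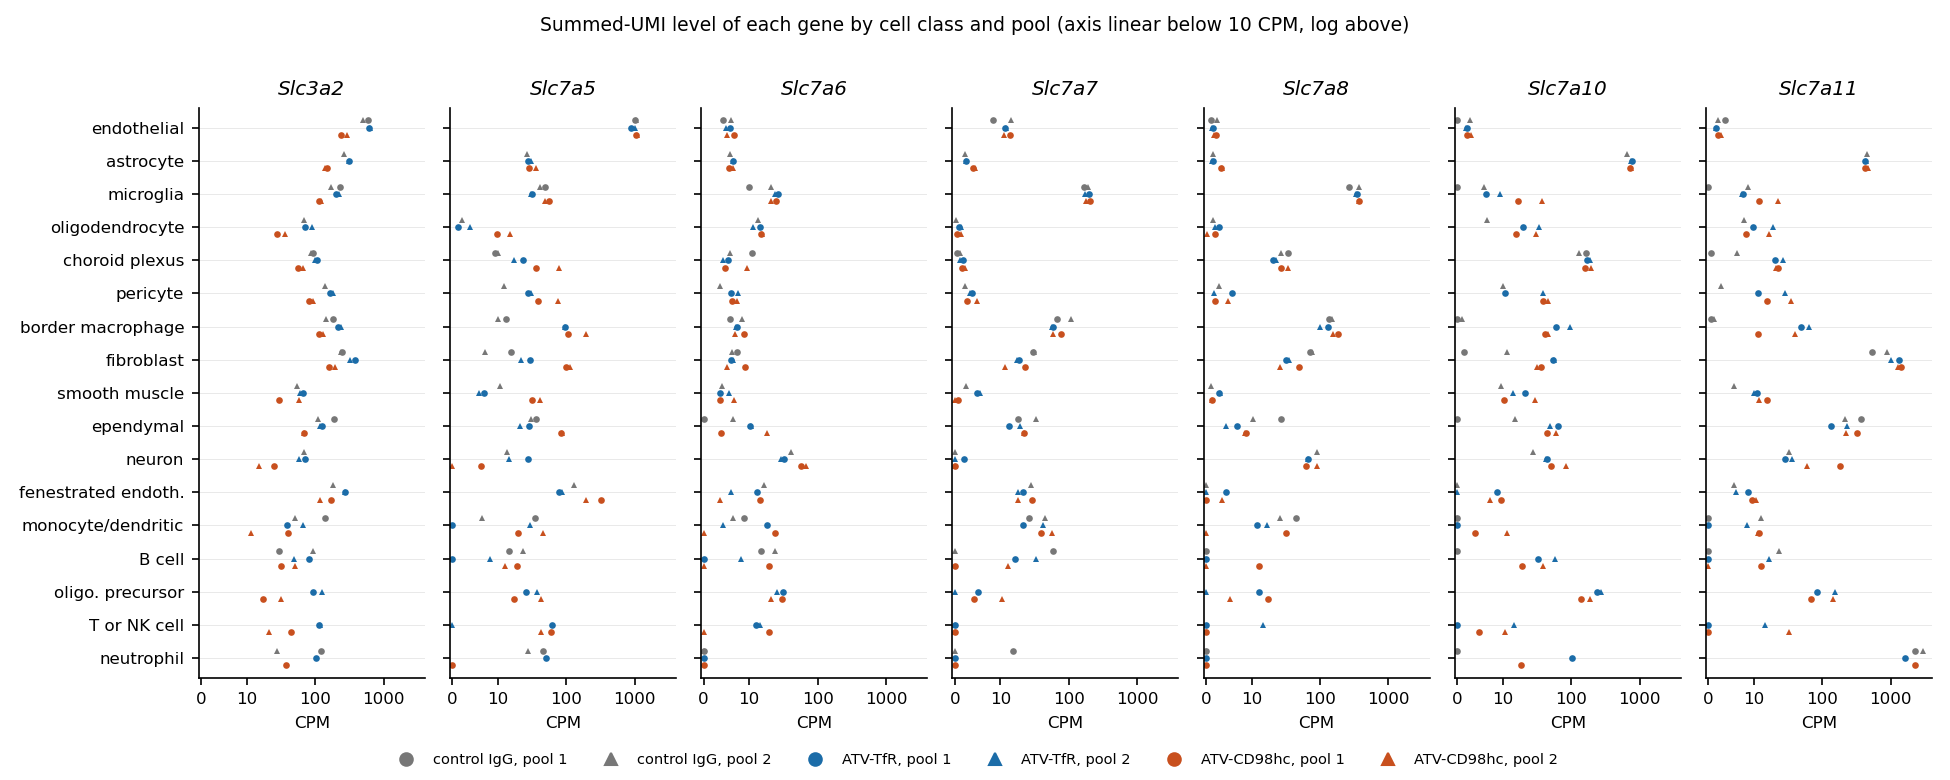
CPM of each of the 7 genes (panels) in the 17 cell classes (rows), 1 point per pool, on an axis that is linear below 10 CPM and logarithmic above. Slc3a2 is spread over all classes, while Slc7a5 stands at 890.3 to 1080 CPM in endothelial-like cells and below 320 CPM elsewhere, Slc7a10 is highest in astrocyte-like cells and Slc7a7 and Slc7a8 are highest in microglia-like cells.

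In the mice with the CD98hc knock-in, given ATV-CD98hc, Slc3a2 had a lower fitted level than in ATV-TfR in each of the 14 classes where it was tested, past the threshold in 4. Endothelial-like cells held 241.5 and 295.8 CPM in the ATV-CD98hc pools, below all 4 other pools. Astrocyte-like cells held 150.8 and 137.1 CPM and microglia-like cells 115.1 and 121.1 CPM, against 202.9 and 220.0 CPM in ATV-TfR and 227.4 and 170.1 CPM in control IgG for the latter. In both classes every knock-in pool lay below every other pool. ATV-CD98hc minus ATV-TfR was tested with edgeR's quasi-likelihood test over all genes of a class, with Benjamini-Hochberg adjustment and a threshold of 0.05, on 2 pools a side. All 7 genes passed the filter on low counts in 7 of the classes compared, 6 in border macrophage-like and smooth muscle-like cells, 5 in pericyte-like and neuron-like cells, 3 in oligodendrocyte precursor-like, 2 in fenestrated endothelial-like and 1 in monocyte or dendritic cell-like cells, and 0 in B cell-like and T or NK cell-like cells.

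Of the 14 classes where Slc3a2 passed the filter on low counts, it was lower in 14, with log2 differences from -2.04 to -0.68 and a median of -0.96. It fell past the threshold in 4 of them. In astrocyte-like cells the log2 difference was -1.15 (SE 0.053, adjusted p = 6.18e-05 by edgeR), where 10.7% of the 18918 genes tested were called. That in microglia-like cells was -0.85, with an SE of 0.17 and an adjusted p of 0.0215 (2.96% of genes called). Oligodendrocyte-like cells, with 71.96 and 88.71 CPM in ATV-TfR and 27.24 and 35.93 in ATV-CD98hc, differed by -1.39 (SE 0.18, adjusted p = 0.00927 by edgeR, 0.181% called). Choroid plexus epithelial-like cells, with 106.9 and 100.1 CPM against 55.25 and 65.63, differed by -0.84 (SE 0.12, adjusted p = 0.0360 by edgeR, 0.0992% called). The microglia-like call was lost without any 1 of these 4 pools (adjusted p = 0.213 to 0.338), and DESeq2 did not make it. The choroid call was lost without ATV-TfR pool 1 or 2 or ATV-CD98hc pool 2 (adjusted p = 0.286, 0.613 and 0.0532 by edgeR). Fibroblast-like and pericyte-like cells, at -0.99 (adjusted p = 0.0742) and -1.01 (adjusted p = 0.328, 0.0172% called), were among the 10 classes not called.

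In endothelial-like cells the same contrast gave -1.27 (SE 0.22, adjusted p = 0.789 by edgeR), with 0 of 16657 genes called and 378 at an unadjusted p under 0.05. DESeq2 called 10 genes there and gave Slc3a2 -1.26 with an adjusted p of 2.68e-05. Negative bins alone gave -1.41 (adjusted p = 0.00864 by edgeR) and medium bins alone -0.84 (adjusted p = 0.0323). Against control IgG the endothelial-like difference was -1.01 (SE 0.22, adjusted p = 0.467 by edgeR, 0 genes called), and ATV-TfR minus control IgG was 0.26 (adjusted p = 0.818, 0 genes called). These comparisons of treatments share the ATV-CD98hc or ATV-TfR pools. Whether knock-in, antibody or the counting of the humanised allele set the lower values cannot be told apart.

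**Figure D2:**
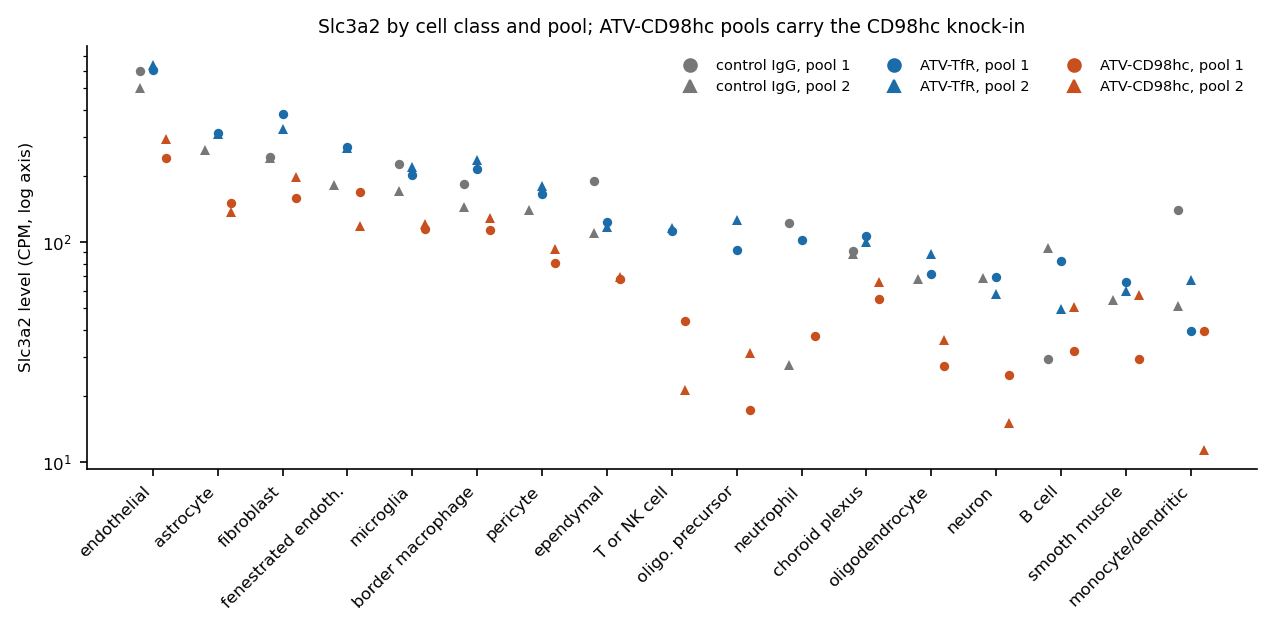
Slc3a2 in CPM (log axis) by cell class, 1 point per pool, classes ordered by their median over pools without the CD98hc knock-in. The orange ATV-CD98hc points lie below the blue ATV-TfR points in endothelial-like cells (241.5 and 295.8 against 608.7 and 640.5 CPM) and in every other class with 2 pools of each, except the B cell-like and the monocyte or dendritic cell-like cells, whose points interleave.

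Slc7a5 (LAT1) was the light chain of endothelial-like cells. Its level there was 997.9 and 1053 CPM in control IgG, 890.3 and 1005 CPM in ATV-TfR, and 1036 and 1080 CPM in ATV-CD98hc. Over pools the 3 treatments lay close together, and Slc7a5 was not called between any of them in the edgeR fits. The pools differed in their mix of bins. The high bins held 16631 and 15375 endothelial-like cells in ATV-TfR and 8967 and 11643 in ATV-CD98hc, the medium bins 2534 and 2348 against 13804 and 15852. Within the low, medium and high bins both ATV-CD98hc libraries lay above both ATV-TfR libraries. The negative bins overlapped, as given below. In the negative bins alone Slc7a5 stood at 981.1 CPM in the 1 control library, at 420.5 and 142.7 CPM in ATV-TfR and at 301.7 and 401.9 CPM in ATV-CD98hc, where arterial cells, low in this gene, made up 1.69%, 53.2% and 53.6%, and 28.8% and 30.0% of the endothelial-like cells. These shares moved with the sub-clustering. With random seeds 1, 2 and 3 they were 22.5%, 22.8% and 17.2% in the control library. In libraries where at least 20 other cells were left they were 33.9% to 71.4% in ATV-TfR and 44.0% to 58.9% in ATV-CD98hc. With 1 control library these values are given as a description. Slc7a5 held 97.4% to 98.3% of all light chain UMIs in the 6 pools. Fenestrated endothelial-like cells, which were separated by markers of leaky vessels such as Plvap, came next with 78.35 to 318.6 CPM, and Slc7a5 held 58.1% to 83.5% of their light chain UMIs. No other class had a median above 100 CPM.

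Within the endothelial-like cells Slc7a5 was low in arterial cells. An arterial sub-cluster of 928 cells was set apart by its arterial markers, and the border between capillary and venous cells was not used because it moved with the clustering. Arterial cells held 18.2 CPM of Slc7a5 in control IgG pool 2, 39.36 and 61.37 CPM in ATV-TfR and 44.39 and 60.39 CPM in ATV-CD98hc, against 903.8 to 1089 CPM in the other endothelial-like cells of the 6 pools. Slc3a2 had the same order with a narrower gap. In arterial cells it stood at 168.3 CPM in control IgG pool 2 and at 184.9 and 203.5 CPM in ATV-TfR, and in the other endothelial-like cells of the pools outside the knock-in at 506.6 to 646.5 CPM. The 2 sets of cells did not overlap in either gene. Random seeds 1, 2 and 3 of the sub-clustering gave wider arterial sets of 19035, 15104 and 15701 cells, which held 751, 757 and 926 of the 928. Over all pools summed, Slc7a5 in these wider sets was 488.0 to 563.5 CPM against 1113 to 1127 CPM in the remaining cells, and Slc3a2 280.1 to 321.6 against 439.8 to 447.3 CPM.

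Slc7a10 (Asc-1) and Slc7a11 (xCT) were the light chains of astrocyte-like cells. Slc7a10 stood at 645.1 CPM in control IgG pool 2, 781.0 and 758.8 CPM in ATV-TfR and 719.6 and 738.3 CPM in ATV-CD98hc. Slc7a11 stood at 452.2, 423.2, 427.8, 413.8 and 458.6 CPM in the same order of pools. The pools of the 3 treatments lay close together for both genes. Slc7a10 held 56.9% to 62.9% of light chain UMIs and Slc7a11 34.1% to 39.9%, while Slc7a5 held 2.24% to 2.85%. No class had a higher Slc7a10 level, and none overlapped the astrocyte-like range for it.

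Slc7a10 was also the largest light chain share in every pool of oligodendrocyte precursor-like and choroid plexus epithelial-like cells, and in 4 of 5 pools of oligodendrocyte-like cells. Oligodendrocyte precursor-like cells, with 24 to 66 cells per pool, held 236.5 and 276.5 CPM in ATV-TfR and 137.8 and 188.6 CPM in ATV-CD98hc. It was the largest share in all 4 of their pools, from 46.2% to 60.1%. Per UMI of the 12 astrocyte markers, Slc7a10 there stood at a median of 1.09 times the ratio of astrocyte-like cells of the same library. Slc7a11 stood at 1.11 times (3 libraries, all bins), and the part of astrocyte RNA in both levels was not tested. Choroid plexus epithelial-like cells, which secrete cerebrospinal fluid, held 164.4 and 129.8 CPM in control IgG, 171.8 and 188.5 CPM in ATV-TfR and 160.5 and 194.1 CPM in ATV-CD98hc. The 6 choroid pools overlapped between treatments, and Slc7a10 was the largest share in each, from 57.4% to 74.7%. Slc7a11, the other light chain of astrocyte-like cells, stood at 68.91 to 150.8 CPM in oligodendrocyte precursor-like cells, with 20.9% to 34.6% of light chain UMIs beside 34.1% to 39.9% in astrocyte-like cells. In choroid plexus epithelial-like cells Slc7a11 was 0.545 CPM in control IgG pool 1 and 6.26 to 26.6 CPM in the other pools. Per UMI of the 12 astrocyte markers, Slc7a10 in the medium and high bins stood at a median of 2.41 times the ratio of astrocyte-like cells of the same library (8 libraries) and Slc7a11 at 0.0282 times. Over all bins (17 libraries) the medians were 1.74 and 0.377 times.

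Slc7a11 reached its highest levels in neutrophil-like and fibroblast-like cells. Neutrophil-like cells held 2237 and 2975 CPM in control IgG, 1612 CPM in ATV-TfR pool 1 and 2226 CPM in ATV-CD98hc pool 1, on 20 to 42 cells per pool. It made up 91.3% to 99.2% of their light chain UMIs, beside 13 Slc3a2 UMIs in all 3 pools without the knock-in. Fibroblast-like cells of the meninges and vessel walls held 534.7 and 887.3 CPM in control IgG, 1308 and 1018 CPM in ATV-TfR and 1404 and 1288 CPM in ATV-CD98hc. All 4 ATV pools lay above both control pools, and the share was 80.9% to 90.3%. ATV-CD98hc minus ATV-TfR did not pass the threshold for Slc7a11 in fibroblast-like cells. Slc7a11 also led in ependymal-like cells, the ciliated lining of the ventricles, with 132.3 to 368.6 CPM and 51.9% to 82.0% of light chain UMIs. Per astrocyte marker UMI, Slc7a11 in fibroblast-like cells of the medium and high bins stood at a median of 13.9 times the astrocyte ratio, and in ependymal-like cells at 2.06 times. Over all bins the medians were 18.9 and 1.43 times.

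Slc7a8 (LAT2) and Slc7a7 (y+LAT1) were the light chains of microglia-like cells, the resident macrophages of the brain. Slc7a8 stood at 267.0 and 371.3 CPM in control IgG, 344.9 and 336.8 CPM in ATV-TfR and 374.4 and 374.3 CPM in ATV-CD98hc. Slc7a7 stood at 168.1 and 190.6 CPM, 194.2 and 174.0 CPM, and 204.8 and 177.7 CPM in the same order. Control IgG pool 1, with 29 cells, was the lowest for both genes, and the treatments overlapped for Slc7a7. The share was 54.0% to 58.1% for Slc7a8 and 26.1% to 34.0% for Slc7a7. No other class overlapped microglia-like cells for either gene.

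Border macrophage-like cells, the macrophages of the meninges and perivascular spaces, held both of these light chains at lower levels. The share of light chain UMIs was 24.1% to 61.3% for Slc7a8, the largest in 5 of 6 pools, and 11.8% to 38.85% for Slc7a7. The median share of Slc7a7, 16.4%, was below the 23.4% of Slc7a5. Slc7a8 stood at 136.7 and 150.9 CPM in control IgG, 132.4 and 101.5 CPM in ATV-TfR and 186.1 and 156.6 CPM in ATV-CD98hc. Slc7a7 stood at 66.76 and 109.1 CPM, 59.36 and 57.34 CPM, and 77.27 and 59.46 CPM. Slc7a5 was 13.25 and 10.10 CPM in the control pools and 95.90 to 195.5 CPM in the 4 ATV pools, where it held up to 38.8% of light chain UMIs. The summed level of the 12 endothelial markers moved with it, from 108.1 and 150.3 CPM in the control pools to 2959 to 5826 CPM in the ATV pools. In the medium and high bins, Slc7a5 per endothelial marker UMI stood at a median of 0.987 times the ratio of endothelial-like cells of the same library, and over all bins at 1.50 times. Monocyte or dendritic cell-like cells were led by Slc7a7 in both pools with enough UMIs, at 30.3% and 41.7%.

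**Figure D3:**
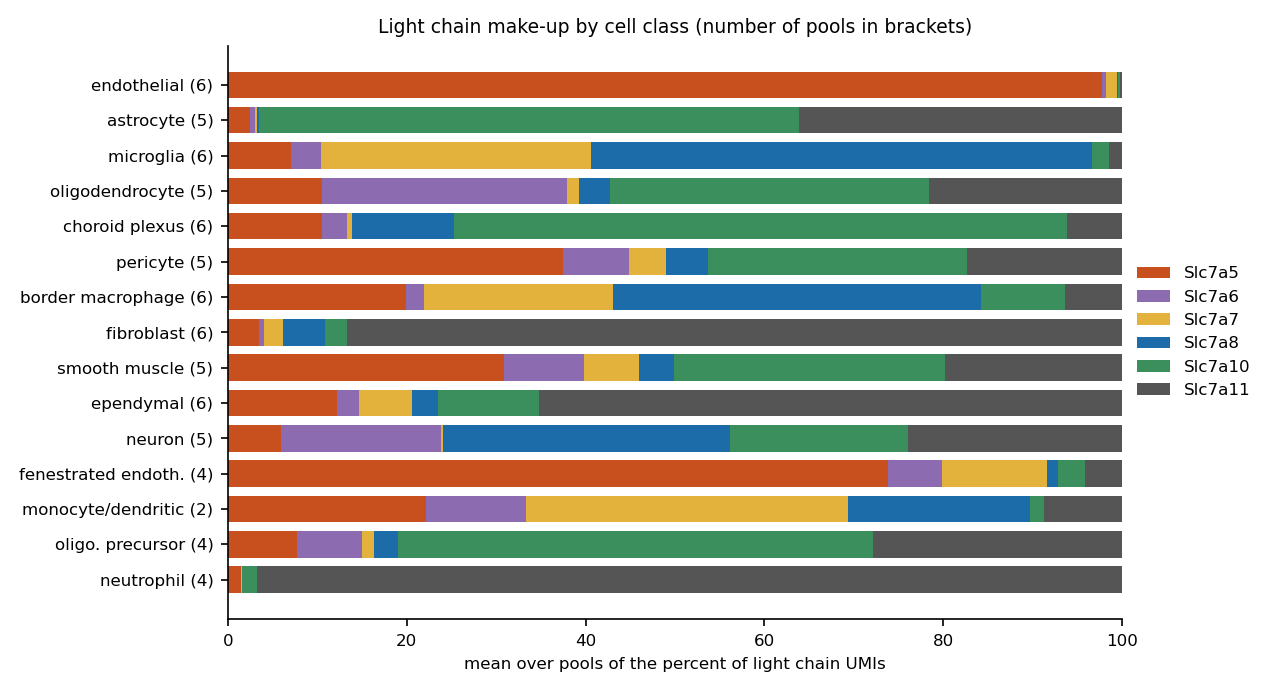
Mean over pools of the percent of light chain UMIs held by each of the 6 light chains (stacked bars), for each class with at least 20 light chain UMIs in a pool; the number of pools is in brackets. Endothelial-like cells are almost wholly Slc7a5, astrocyte-like cells are Slc7a10 with Slc7a11, microglia-like cells are Slc7a8 with Slc7a7, and fibroblast- and neutrophil-like cells are mostly Slc7a11.

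Slc7a6 (y+LAT2) had no class of high level. Neuron-like cells held 29.02 to 68.01 CPM in 5 pools, oligodendrocyte precursor-like cells 20.95 to 30.84, microglia-like cells 9.89 to 26.3 and oligodendrocyte-like cells 11.31 to 15.36 CPM. Neighbours in this order overlapped. In neuron-like cells (20 to 136 per pool) it held 15.2% to 22.5% of light chain UMIs, beside 17.5% to 44.4% for Slc7a8, which was the largest share in 4 of 5 pools. In oligodendrocyte-like cells Slc7a6 held 15.8% to 42.9% and Slc7a10 20.5% to 47.8%. The Slc7a10 share of oligodendrocyte-like cells stood beside 862.0 to 1409 CPM of astrocyte markers. Per astrocyte marker UMI, Slc7a10 there stood at a median of 0.457 times the astrocyte ratio over all bins (13 libraries) and at 0.622 times in the medium and high bins (4 libraries).

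Mural cells, which wrap the vessels, were among the classes with fewer light chain UMIs than Slc3a2 UMIs in the pools without the knock-in. Pericyte-like cells held 0.393 light chain UMIs per Slc3a2 UMI (median of 3 pools without the knock-in) and smooth muscle-like cells 0.740, against 1.65 in endothelial-like, 2.83 in microglia-like, 3.66 in fibroblast-like and 3.97 in astrocyte-like cells. Oligodendrocyte-like cells, at 0.678, and fenestrated endothelial-like cells, at 0.735 (2 pools), were also below 1. Slc7a5 held 27.7% to 43.6% of the light chain UMIs of pericyte-like cells at 12.23 to 75.08 CPM, beside 778.3 to 2461 CPM of endothelial markers. Its ratio to those markers in the medium and high bins was a median of 0.953 times that of endothelial-like cells, and over all bins 0.982 times. In the knock-in pools, with their lower Slc3a2, the light chain UMIs per Slc3a2 UMI were 4.07 in endothelial-like, 8.44 in astrocyte-like and 5.80 in microglia-like cells (medians of 2 pools, no test). There pericyte-like cells, at 1.57, smooth muscle-like cells, at 1.86, oligodendrocyte-like cells, at 2.05, and fenestrated endothelial-like cells, at 2.13, were above 1.

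The leading light chain RNA was not called between the ATV treatments in endothelial-like, astrocyte-like, microglia-like, choroid plexus epithelial-like and fibroblast-like cells. Of all genes, 0%, 10.7%, 2.96%, 0.0992% and 0.466% were called there in the same order. Where few genes were called, a missing call does not show that a level stayed the same. Slc7a5 was called in fenestrated endothelial-like cells, which it led in every pool, and in smooth muscle-like cells. In the latter it was the largest share in 3 of 5 pools, and its share was smaller without cells that held 2 endothelial markers, as given below. ATV-CD98hc minus ATV-TfR over pools gave Slc7a5 0.10 in endothelial-like cells, Slc7a10 -0.11 (adjusted p = 0.169 by edgeR) in astrocyte-like cells, and no call for Slc7a8 or Slc7a7 in microglia-like cells, for Slc7a10 in choroid plexus epithelial-like cells or for Slc7a11 in fibroblast-like cells. In astrocyte-like cells Slc7a8 rose by 1.27 (SE 0.16, adjusted p = 0.00357 by edgeR), from 1.56 and 1.24 CPM to 3.25 and 3.62 CPM. Slc7a7 rose by 0.72 (SE 0.12, adjusted p = 0.0101), from 2.50 and 2.45 CPM to 3.97 and 4.37 CPM. In the negative bins alone the values were -0.54 and -0.23, neither called. Microglia marker RNA in the low bins of astrocyte-like cells was 184.9 and 178.4 CPM in ATV-CD98hc and 109.4 and 113.4 CPM in ATV-TfR, and its part in the result was not tested.

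The pools of the ATVs differed in their mix of bins as well as in treatment. In microglia-like cells the negative bins held 2803 and 1462 cells in ATV-TfR and 663 and 246 in ATV-CD98hc. The low bins held 414 and 326 against 1871 and 1692. Over such pools Slc7a5 was higher in ATV-CD98hc than in ATV-TfR in 11 of 11 classes tested, by 0.10 to 2.41 on the log2 scale. It rose past the threshold in 5: smooth muscle-like cells (2.41, adjusted p = 5.37e-05 by edgeR, 0.480% of genes called), fibroblast-like cells (2.05, adjusted p = 0.0101, 0.466%), ependymal-like cells (1.76, adjusted p = 0.00022, 1.75%), fenestrated endothelial-like cells (1.63, adjusted p = 0.0390, 0.0879%), and by 0.75 in microglia-like cells (adjusted p = 0.0143). In fibroblast-like cells, for example, it was 29.52 and 21.70 CPM in ATV-TfR and 98.04 and 114.0 CPM in ATV-CD98hc, while endothelial marker RNA was 1136 and 852.5 CPM against 2912 and 3535 CPM. Without cells that held 2 endothelial markers, Slc7a5 gave 0.87 in smooth muscle-like, 0.65 in fibroblast-like, 0.59 in ependymal-like and 0.09 in microglia-like cells, and none was called. In the negative bins alone the ependymal-like difference had the opposite sign, as given below. Leaving out single pools ended the microglia-like call (adjusted p = 0.208 and 0.0901 without ATV-TfR pool 1 or 2), the fibroblast-like call (0.0987 and 0.278 without the same pools) and the fenestrated call (0.190, 0.159 and 0.0604 without control IgG pool 2, ATV-TfR pool 1 or ATV-CD98hc pool 1). Slc7a10 rose by 1.80 in microglia-like cells (adjusted p = 0.0273 by edgeR), from 6.24 and 9.42 CPM to 16.46 and 37.74 CPM, beside astrocyte marker RNA of 465.8 and 573.3 CPM against 619.9 and 1060 CPM; without ATV-TfR pool 1 or ATV-CD98hc pool 2 it was not called (adjusted p = 0.153 and 0.0723). Slc7a11 rose by 2.09 in neuron-like cells (adjusted p = 0.00121, 6.99% called), from 28.06 and 36.27 to 181.2 and 60.45 CPM, a call that was lost with at least 50 cells per pool (1.06, adjusted p = 0.379) and without ATV-TfR pool 1 or ATV-CD98hc pool 1 (adjusted p = 0.457 and 0.358).

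The bins asked how the genes went with the antibody signal of the cell. In endothelial-like cells both Slc3a2 and Slc7a5 were higher in the bright bins of both ATVs. Slc7a5 stood in ATV-TfR at 420.5 and 142.7 CPM in the negative bins, 186.0 and 188.7 in the low, 598.7 and 593.5 in the medium and 933.6 and 1056 in the high bins. In ATV-CD98hc it stood at 301.7 and 401.9, 577.3 and 642.9, 976.5 and 1033, and 1172 and 1186 CPM in the same order. Both high libraries lay above all dimmer libraries of their treatment. In control IgG the negative library held 981.1 CPM, the low libraries 1003 and 1114 and the medium libraries 679.3 and 908.0 CPM, the medium bins being the lowest.

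Slc3a2 in endothelial-like cells stood in ATV-TfR at 283.2 and 252.1 CPM (negative), 254.0 and 237.6 (low), 445.2 and 457.4 (medium) and 632.7 and 663.8 CPM (high). In ATV-CD98hc it stood at 69.6 and 142.6, 205.8 and 192.7, 236.7 and 249.2, and 253.1 and 362.0 CPM. Both pools of an ATV gave the same order of bins, with the low bin lowest in ATV-TfR and the negative bin lowest in ATV-CD98hc. High minus negative gave 1.44 (SE 0.24, adjusted p = 0.000193 by edgeR) for Slc3a2 and 1.94 (SE 0.28, adjusted p = 3.9e-05) for Slc7a5 in ATV-TfR, where 6.17% of 15063 genes were called (929, or 1496 with the pool as a block). In ATV-CD98hc it gave 1.77 (SE 0.29, adjusted p = 0.000261) and 1.90 (SE 0.29, adjusted p = 0.000113), where 4.30% were called (647, or 1008 with the block). Slc7a7 fell by 1.30 in ATV-TfR (adjusted p = 0.0418 by edgeR), from 34.32 and 23.78 CPM on 12 and 5 UMIs to 10.48 and 11.24 CPM, and was not called without ATV-TfR pool 1 or 2 (adjusted p = 0.716 and 0.178). Microglia marker RNA in the same libraries stood at 211.7 and 152.2 CPM in the negative and 71.6 and 92.3 CPM in the high bins, and its part in the fall was not tested. The difference of these changes between the ATVs was called for 0 genes (644 at an unadjusted p under 0.05, 5 by DESeq2).

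The share of arterial cells differed along with the bins. Arterial cells, low in both genes, made up 41 of 77 and 30 of 56 endothelial-like cells in the ATV-TfR negative bins and 21 of 73 and 15 of 50 in those of ATV-CD98hc, but 0.186% and 0.189% and 0.0112% and 0.0344% of the high bins. The wider arterial sets of seeds 1 to 3 made up, in libraries where at least 20 other cells were left (not ATV-TfR negative pool 2 under seed 3), 33.9% to 71.4% of the ATV-TfR negative and 10.5% to 17.8% of the ATV-TfR high bins, and 44.0% to 58.9% against 8.31% to 17.0% in ATV-CD98hc. Without the arterial cells, Slc7a5 in ATV-TfR was 789.7 and 323.1 CPM in the negative bins (36 and 26 cells) and 935.6 and 1059 CPM in the high bins. The difference was then 0.97 (adjusted p = 0.131 by edgeR) for Slc7a5 and 0.81 (adjusted p = 0.226) for Slc3a2, neither called. In ATV-CD98hc, where Slc7a5 without the arterial cells was 433.6 and 691.9 CPM in the negative and 1172 and 1186 CPM in the high bins, the rise was 1.27 (adjusted p = 0.0178 by edgeR), and that of Slc3a2, from 78.8 and 200.9 to 253.0 and 362.1 CPM, was 1.46 (adjusted p = 0.016). Without the wider arterial sets of seeds 1 to 3, Slc7a5 was 583.9 to 934.8 CPM in the negative and 1217 to 1255 CPM in the high bins of ATV-CD98hc. In ATV-TfR it was 239.2 to 1078 against 1001 to 1148 CPM, and these bins overlapped. No test was made for the wider sets. In all endothelial-like cells the Slc3a2 call was lost without ATV-TfR pool 1 or 2 (adjusted p = 0.0595 and 0.158 by edgeR) and the Slc7a5 call without pool 2 (adjusted p = 0.0646). Inside the arterial cells of ATV-TfR, Slc7a5 was 5.409 and 12.68 CPM in the low, 37.75 and 53.44 CPM in the medium and 155.6 and 188.9 CPM in the high bins, on 29 to 109 cells per library and with no test. The values of the negative bins, with 41 and 30 arterial cells, are not given here, so the order over all bins is not shown.

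Non-arterial cells could be compared between the high and low bins, which held 136 to 16600 of them per library, a contrast added after the data were seen. Slc7a5 in these cells stood at 316.4 and 305.5 CPM in the low, 634.8 and 633.5 in the medium and 935.6 and 1059 CPM in the high bins of ATV-TfR. In ATV-CD98hc it stood at 635.6 and 726.4, 978.1 and 1037, and 1172 and 1186 CPM. The bins did not overlap in either treatment. High minus low gave 1.86 (SE 0.27, adjusted p = 3.48e-05 by edgeR) in ATV-TfR, where 6.24% of 14794 genes were called, and 0.92 (SE 0.25, adjusted p = 0.0156) in ATV-CD98hc, where 9.97% were called. With the pool as a block the calls numbered 1478 against 923 and 2654 against 1475. The size of the gap depended on how many cells were set aside as arterial. With the wider arterial sets of seeds 1 to 3, Slc7a5 in the remaining cells was 385.3 to 584.4 CPM in the low and 1001 to 1148 CPM in the high bins of ATV-TfR, and 846.8 to 990.0 against 1217 to 1255 CPM in ATV-CD98hc. The bins did not overlap there either, and no test was made for these sets.

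Slc3a2 in non-arterial cells stood at 324.2 and 305.5 CPM in the low and 633.6 and 664.7 CPM in the high bins of ATV-TfR, and at 215.3 and 209.3 against 253.0 and 362.1 CPM in ATV-CD98hc. The bins did not overlap. The change was 1.22 (SE 0.24, adjusted p = 0.00148 by edgeR) in ATV-TfR. In ATV-CD98hc the difference was 0.68 (SE 0.23, adjusted p = 0.065), or 0.65 with the pool as a block (adjusted p = 5.87e-05), and 1.02 without ATV-CD98hc pool 1 (adjusted p = 0.000851). Without either ATV-TfR pool the ATV-TfR call was lost (adjusted p = 0.145 and 0.341). With the wider arterial sets the bins of ATV-TfR stayed apart, at 341.6 to 504.7 against 660.6 to 697.1 CPM, while those of ATV-CD98hc overlapped, at 247.8 to 278.9 against 254.4 to 371.6 CPM. The difference between the ATVs was called for 6 genes (0.0406%), none of them a member, and for Slc7a5 it was 0.94 (adjusted p = 0.799 by edgeR), with the block adjusted p = 0.00355.

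Astrocyte light chains in the same non-arterial cells went the other way. Slc7a10 fell by 4.88 in ATV-TfR (adjusted p = 2.11e-05 by edgeR) and by 5.50 in ATV-CD98hc (adjusted p = 6.81e-09), and Slc7a11 fell by 3.54 (adjusted p = 0.00511) and by 3.81 (adjusted p = 2.32e-07). Without ATV-TfR pool 1 both ATV-TfR calls were lost (adjusted p = 0.163 and 0.611 by edgeR). In ATV-CD98hc Slc7a8 fell by 1.58 (adjusted p = 0.00754 by edgeR) and Slc7a7 by 0.86 (adjusted p = 0.00551), the former not called without ATV-CD98hc pool 2 (-0.87, adjusted p = 0.431). Astrocyte marker RNA in all endothelial-like cells moved with the bins, from 1411 and 1426 CPM in the low to 311.3 and 304.4 CPM in the high bins of ATV-TfR and from 842.5 and 1160 to 270.9 and 285.1 CPM in ATV-CD98hc. Microglia marker RNA in the ATV-CD98hc libraries went from 214.6 and 241.8 CPM in the low to 114.4 and 115.8 CPM in the high bins. The part of either in these changes and in those of Slc7a5 and Slc3a2 was not tested.

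**Figure D4:**
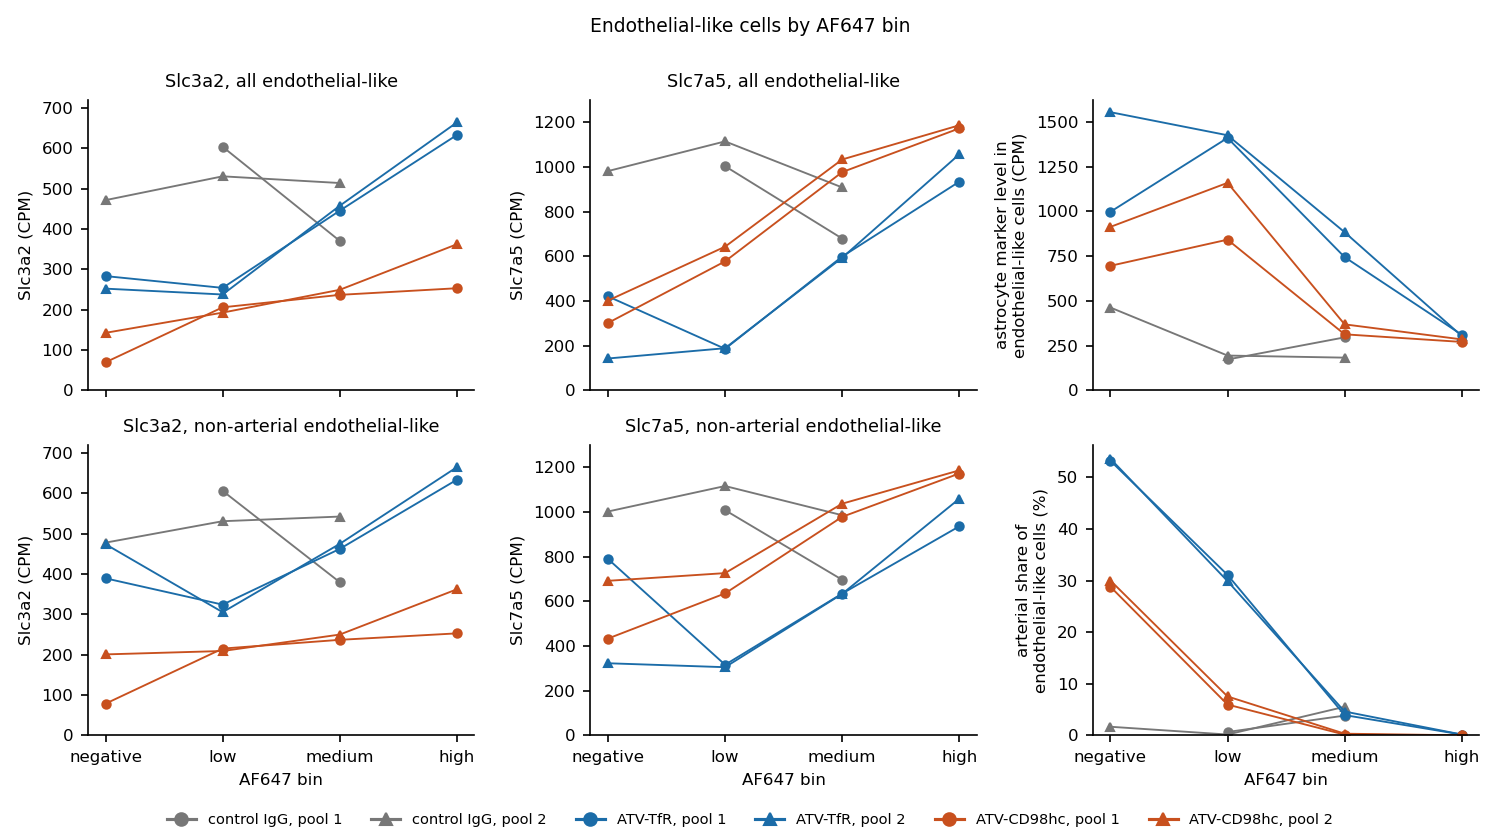
Slc3a2 and Slc7a5 (CPM) by AF647 bin in all endothelial-like cells (top) and without the arterial set of 928 cells (bottom), 1 line per pool, with the astrocyte marker level and the share of that arterial set in the same libraries at the right. Both genes are highest in the high bins of both ATVs, while the astrocyte marker level there is at its lowest for that treatment. The set of 928 cells makes up under 1% of these high bins. The wider arterial sets of seeds 1 to 3, not drawn, made up 8.31% to 17.8% of them.

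In astrocyte-like cells the leading light chains, Slc7a10 and Slc7a11, were not called between the bins. Medium minus negative called 1 of 7 genes in ATV-TfR (Slc7a8, -1.22, SE 0.30, adjusted p = 0.0207 by edgeR), at 1.44 and 1.00 CPM in the medium against 3.27 and 2.68 CPM in the negative bins, where 4.41% of 15997 genes were called. That call was lost without either ATV-TfR pool (adjusted p = 0.291 and 0.602). Microglia marker RNA in these astrocyte-like libraries stood at 184.3 and 157.5 CPM in the negative and 111.6 and 115.4 CPM in the medium bins, and its part in the result was not tested. Slc7a11 differed by 0.28 (adjusted p = 0.125, and 0.0345 with the pool as a block), from 383.7 and 379.9 CPM to 434.3 and 453.7 CPM. Slc3a2 stood at 302.0 and 286.3 CPM in the negative and 324.0 and 331.3 CPM in the medium bins and was not called. In ATV-CD98hc, with 15.2% of genes called, Slc7a5 alone of the 7 was called. It rose by 1.10 (SE 0.16, adjusted p = 0.000104 by edgeR), from 22.50 and 29.14 CPM to 42.10 and 63.28 CPM, and by 0.83 without cells that held 2 endothelial markers, still past the threshold.

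Endothelial marker RNA was higher in the same bright astrocyte-like libraries, from 9.16 and 13.8 CPM in the negative to 435.1 and 638.1 CPM in the medium bins of ATV-CD98hc, and from 13.5 and 11.4 to 51.2 and 44.1 CPM in ATV-TfR. The negative, low and medium bins of ATV-TfR held 24.50 to 33.36 CPM of Slc7a5 with 9.94 to 51.2 CPM of endothelial markers. Per endothelial marker UMI, Slc7a5 in astrocyte-like cells of the medium and high bins stood at a median of 6.64 times the ratio of endothelial-like cells. It ran from 3.18 to 42.6 times over these 8 libraries, and the median over all bins was 32.4 times. The part of endothelial RNA in the Slc7a5 rise was not tested beyond the removal of cells with 2 endothelial markers. The difference of the medium minus negative changes, ATV-CD98hc minus ATV-TfR, was 0.85 for Slc7a5 (SE 0.23, adjusted p = 0.0328 by edgeR), where 5.64% of genes were called. That call was lost without cells that held 2 endothelial markers and without some single pools, as given in the section on flagged results.

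In microglia-like cells Slc7a5 alone of the 7 genes was called between the bins, and in ATV-CD98hc alone. Medium minus negative called 0 of the 7 genes in ATV-TfR, where 2.48% of 12200 genes were called. The medium bins held 43 and 47 microglia-like cells there, against 241 and 129 in ATV-CD98hc. Slc7a5 differed by 0.64 in ATV-TfR (SE 0.50, adjusted p = 0.607 by edgeR), so the missing call does not show that its level stayed the same. In ATV-CD98hc, with 6.13% called, Slc7a5 rose by 2.20 (SE 0.26, adjusted p = 4.59e-07 by edgeR), from 34.21 and 32.59 CPM to 155.6 and 158.5 CPM. Endothelial marker RNA stood at 127.0 and 51.85 CPM in the negative and at 4660 and 4705 CPM in the medium libraries. Without cells that held 2 endothelial markers the Slc7a5 difference was 0.11 (adjusted p = 0.978 by edgeR). Per endothelial marker UMI, Slc7a5 in microglia-like cells of the medium and high bins stood at a median of 1.24 times the ratio of endothelial-like cells (6 libraries). Over all bins it stood at 5.14 times (16 libraries). Slc7a8 stood at 426.0 and 373.3 CPM in the negative and 362.4 and 306.4 CPM in the medium bins, and Slc7a7 at 218.9 and 176.3 against 183.4 and 143.5 CPM, neither called. For the difference between the ATVs 0.0902% of genes were called, none of the 7.

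**Figure D5:**
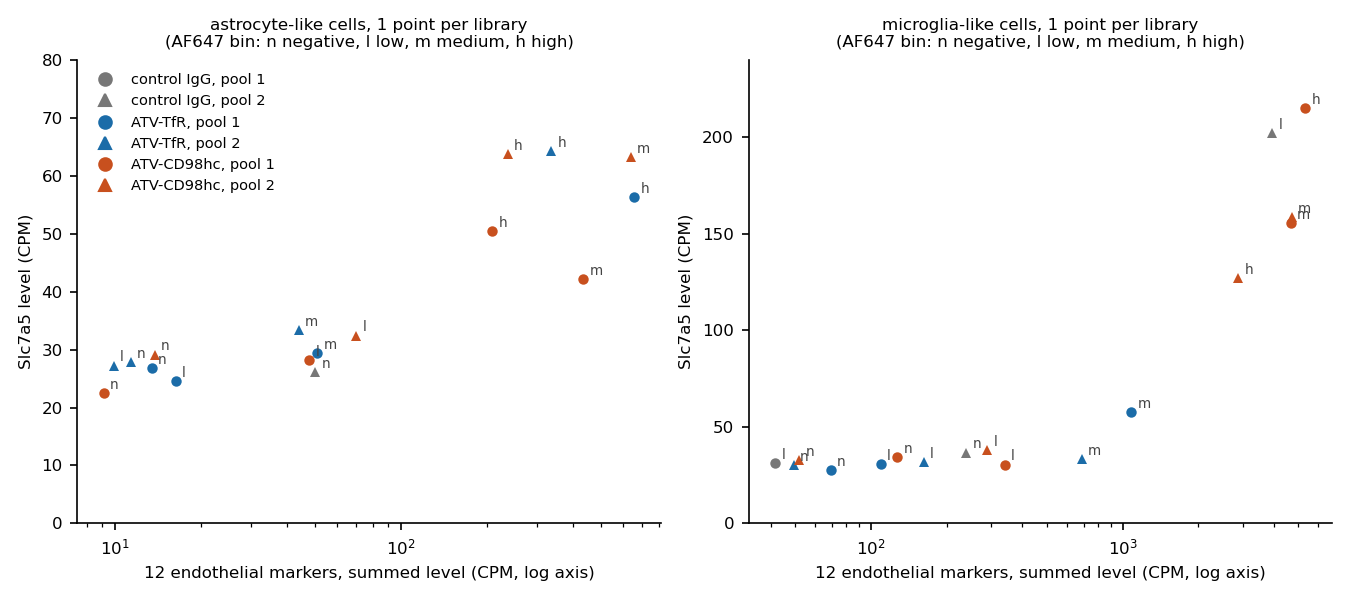
Slc7a5 (CPM) against the summed level of 12 endothelial markers (CPM, log axis) in astrocyte-like (left) and microglia-like cells (right), 1 point per library, with the bin as a letter. Microglia-like libraries with the least endothelial RNA stay near 30 CPM of Slc7a5 and those with the most reach 214.9 CPM, while astrocyte-like libraries start at 22.5 CPM and reach 64.3 CPM.

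Other genes of amino acid transport and sensing were followed in 7 lists of 64 genes in all. In endothelial-like cells, high minus negative, the cationic carriers that need no heavy chain had 1 of 4 tested genes higher in each ATV: Slc7a1 (CAT1, the arginine and lysine carrier) rose by 1.64 in ATV-TfR (adjusted p = 2.44e-05 by edgeR) and by 1.46 in ATV-CD98hc (adjusted p = 0.000202). The counts of all lists in this contrast stand beside a share of all genes called of 6.17% for ATV-TfR and 4.30% for ATV-CD98hc. Of carriers that trade substrates with CD98, 1 of 10 rose and 0 fell in ATV-TfR, and 1 rose and 2 fell in ATV-CD98hc. Slc38a3, a glutamine carrier, rose in both, by 1.57 and 1.59 (adjusted p = 0.000382 and 0.0013). Of 8 genes whose proteins bind or modify CD98hc, 2 rose and 3 fell in ATV-TfR and 1 rose in ATV-CD98hc. The largest rise was that of Slc16a1 (the lactate carrier MCT1), by 2.15 and 1.79 (adjusted p = 0.000704 and 0.00765). The largest fall in ATV-TfR was that of March1 (a ubiquitin ligase), by 4.57 (SE 1.32, adjusted p = 0.039 by edgeR). Among the carriers in ATV-CD98hc it was that of Slc43a1 (the leucine carrier LAT3), by 7.69 (SE 1.63, adjusted p = 0.00577). The negative bins held 77 and 56 endothelial-like cells in ATV-TfR and 73 and 50 in ATV-CD98hc, so the size of these falls is uncertain.

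Among 12 genes of glutathione synthesis and Nfe2l2 targets in the same contrast, Slc1a1 (the glutamate and cysteine carrier EAAT3) rose by 2.14 and 1.25 (adjusted p = 1.42e-05 and 0.00668 by edgeR), and in ATV-CD98hc Slc1a2, a glutamate carrier of astrocytes, fell by 3.71 (adjusted p = 5.18e-05). Of 12 Atf4 and amino acid response genes, 0 rose and 1 fell in ATV-TfR (Nupr1, by 3.64, adjusted p = 0.00183) and none was called in ATV-CD98hc. Of 15 genes of leucine sensing and mTORC1, 2 rose in ATV-TfR, the larger rise being that of Sesn3 (1.17, adjusted p = 0.0483), and 0 were called in ATV-CD98hc, with the same 6.17% and 4.30% of all genes called. Astrocyte marker RNA in these endothelial-like libraries stood at 998.2 and 1555 CPM in the negative and 311.3 and 304.4 CPM in the high bins of ATV-TfR, and at 696.3 and 913.9 against 270.9 and 285.1 CPM in ATV-CD98hc. Without the arterial cells, whose share differed between these bins as given above, 115 genes against 929 were called in ATV-TfR and 189 against 647 in ATV-CD98hc. Median differences of the lists, with genes absent from a group set at their bound, ran from -0.14 to 0.12 in ATV-TfR and from -0.54 to 0.25 in ATV-CD98hc, beside 0.16 and 0.17 over all genes tested. None of the genes of rBAT, the other heavy chain of this family, and its light chains passed the filter on low counts there.

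The same lists in non-arterial endothelial-like cells, high minus low, stood beside 6.24% and 9.97% of all genes called. In ATV-TfR, Slc7a1 rose by 1.44 (adjusted p = 4.38e-05 by edgeR), Slc16a1 by 2.13 (adjusted p = 0.000459) and Slc1a1 by 1.68 (adjusted p = 9.01e-05), the largest rises of their lists here as in high minus negative of all endothelial-like cells. Of the 10 carriers that trade substrates, 2 rose and 2 fell, with Slc38a5 higher by 1.78 (adjusted p = 0.014 by edgeR) and Slc38a1 lower by 4.40 (adjusted p = 0.012), both glutamine carriers. Phgdh, the first enzyme of serine synthesis, was the 1 called gene of the Atf4 list and fell by 3.25 (adjusted p = 0.00242 by edgeR). Slc1a3, a glutamate carrier of astrocytes, fell by 3.50 (adjusted p = 2.7e-08), and Sesn1, a sestrin, rose by 1.04 (adjusted p = 0.00526).

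In ATV-CD98hc the same contrast called the following list genes. Of 4 cationic carriers 2 rose and 1 fell, led by Slc7a3 (CAT3), which rose by 1.43 (adjusted p = 0.00393 by edgeR), and Slc7a2 (CAT2), which fell by 3.27 (adjusted p = 2.41e-05). Of the carriers that trade substrates 1 rose and 3 fell, with Slc38a5 higher by 1.16 (adjusted p = 0.0376 by edgeR) and Slc38a1 lower by 2.16 (adjusted p = 0.0316). The Atf4 list had 0 higher and 3 lower of 12, led by Phgdh, which fell by 3.56 (adjusted p = 1.5e-07 by edgeR). March1 fell by 4.43 (adjusted p = 9.26e-06) and Slc1a2 by 4.91 (adjusted p = 3.72e-10), and 0 of the 15 genes of leucine sensing and mTORC1 were called. Astrocyte marker RNA differed between these bins, as given above, and its part in the list changes was not tested.

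In astrocyte-like pools, ATV-CD98hc minus ATV-TfR, the Atf4 and amino acid response list had 0 higher and 3 lower of 11 genes tested, led by Nupr1, which fell by 0.76 (adjusted p = 0.0103 by edgeR), with a list median of -0.14 beside -0.00075 over all genes. The leucine sensing and mTORC1 list had 1 higher and 4 lower of 15. Eif4ebp1, a target of mTORC1, fell by 0.39 (adjusted p = 0.0392) and Sesn3, a sestrin, rose by 0.19 (adjusted p = 0.0277). Of 10 carriers that trade substrates, 3 rose and 0 fell, with Slc16a10, an aromatic amino acid carrier, higher by 0.94 (adjusted p = 0.0476). Of 12 glutathione and Nfe2l2 genes, 0 rose and Gpx4 fell by 0.18 (adjusted p = 0.0329 by edgeR). March1 rose by 0.73 (adjusted p = 0.0439) and Slc7a2 fell by 0.25 (adjusted p = 0.0177). These counts stand beside 10.7% of all genes called in that contrast. In the same pools endothelial marker RNA stood at 50.2 and 29.8 CPM in ATV-TfR and 81.4 and 123.2 CPM in ATV-CD98hc, and microglia marker RNA at 115.4 and 117.6 against 164.9 and 166.4 CPM, and their part in these changes was not tested.

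Medium minus negative in astrocyte-like cells called 15.2% of all genes in ATV-CD98hc and 4.41% in ATV-TfR. In ATV-CD98hc the cationic list had 1 higher of 4, Slc7a1, by 1.78 (adjusted p = 0.000141 by edgeR). Of 7 proteins that bind or modify CD98hc 1 rose and 1 fell, Bsg (basigin, which escorts lactate carriers) by 0.78 (adjusted p = 0.00122) and March1 by 1.96 (adjusted p = 0.0153). The same genes were called in ATV-TfR, where Bsg rose by 0.56 (adjusted p = 0.0345 by edgeR) and March1 fell by 2.19 (adjusted p = 0.000245). The Atf4 list had 0 higher and 2 lower of 11 in ATV-CD98hc, with Nupr1 lower by 2.51 (adjusted p = 6.18e-06 by edgeR), and the leucine sensing list 0 higher and 2 lower of 15, with Eif4ebp1 lower by 0.68 (adjusted p = 0.0375). Of 12 glutathione and Nfe2l2 genes Slc1a1 rose by 1.85 (adjusted p = 0.00197 by edgeR) and Gclm, a subunit of the enzyme that starts glutathione synthesis, fell by 0.36 (adjusted p = 0.015). Of 9 carriers that trade substrates 3 rose, led by Slc38a5, a marker of the venous endothelial list, which was at 0 in the negative bins and at least 25.3-fold higher in the medium bins, against a floor of 3 UMIs over the group.

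In ATV-TfR the other called list genes of astrocyte-like cells were Slc38a2, a glutamine carrier, which fell by 0.74 (adjusted p = 0.0319 by edgeR), and Slc1a3, which rose by 0.42 (adjusted p = 0.00765). For the difference of these changes, ATV-CD98hc minus ATV-TfR, with 5.64% of genes called, Slc7a1 was higher by 1.87 (adjusted p = 0.00765 by edgeR) and Slc6a6, the taurine carrier, by 3.00 (adjusted p = 0.000129), and Nupr1 was lower by 2.42 (adjusted p = 0.000345) and Gclm by 0.48 (adjusted p = 0.0384). Endothelial marker RNA in the ATV-CD98hc libraries stood at 9.16 and 13.8 CPM in the negative and 435.1 and 638.1 CPM in the medium bins, and its part in the list changes was not tested. In ATV-TfR endothelial marker RNA was also higher and microglia marker RNA lower in the medium bins, as given above. The part of either in the list changes was not tested.

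In microglia-like cells, medium minus negative, Lgals3 (galectin-3, which binds CD98hc) rose by 5.53 in ATV-TfR (adjusted p = 3.18e-05 by edgeR) and by 5.30 in ATV-CD98hc (adjusted p = 1.94e-05), where 2.48% and 6.13% of all genes were called. The medium bins held 43 and 47 microglia-like cells in ATV-TfR and 241 and 129 in ATV-CD98hc. In ATV-TfR 2 of the 8 binding or modifying proteins rose and no gene of another list was called. In ATV-CD98hc 3 of the 8 rose and 1 fell, Itgb3 (integrin beta-3), by 1.02 (adjusted p = 0.00572 by edgeR). Slc7a1 rose by 1.89 and Slc1a1 by 5.01 (adjusted p = 5.21e-05 and 9.81e-06), Slc1a2 fell by 1.99 (adjusted p = 0.00106), and Slc38a5, at 0 in the negative bins, was at least 19.7-fold higher in the medium bins. Over microglia-like pools, ATV-CD98hc minus ATV-TfR, Slc16a1 rose by 0.88 (adjusted p = 0.0485 by edgeR), Slc38a5 by 3.26 (adjusted p = 0.0126) and Slc1a1 by 2.97 (adjusted p = 0.00736), beside 2.96% of all genes. Endothelial marker RNA in the microglia-like libraries stood at 69.2 and 49.4 CPM in the negative and 1085 and 687.4 CPM in the medium bins of ATV-TfR, and at 127.0 and 51.85 against 4660 and 4705 CPM in ATV-CD98hc. Without cells that held 2 endothelial markers the genes called numbered 231 against 302 in ATV-TfR and 29 against 748 in ATV-CD98hc, and the part of endothelial RNA in the rises of these genes was not tested.

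The genes closest in profile to each member except Slc7a6 were found over 16 classes of the ATV-TfR pools, by Pearson's r of log2(CPM + 1), among genes of at least 50 CPM in a class, and are given as a description. Slc3a2 was closest to Slc39a8 (r = 0.857), a metal carrier, then to Castor1, Rnf215, Ramp2 and Selenop (r = 0.822 to 0.844). Slc7a5 was closest to Polk (r = 0.874), then Pwwp2b, Slc39a10, Degs2 and Edn1 (endothelin-1), all 5 highest in endothelial-like cells. Slc7a7 was closest to Ubtd1 (r = 0.882), Ifngr2, Fes, Cnpy3 and Ctsz, and Slc7a8 to Trpm2 (r = 0.821), Lyzl4, Maf, Man1c1 and Gm40841. Slc7a10 was closest to Dipk1c (r = 0.931), Ntsr2, AW047730, Psd2 and Gli2, all 5 highest in astrocyte-like cells. Slc7a11 was closest to F3 (r = 0.963), Scara3, Aldh1a1, Mdk and Gjb6. Of these, Mdk was highest in fibroblast-like and the other 4 in astrocyte-like cells. Neutrophil-like cells, which held the highest Slc7a11 level (median 2232 CPM over their pools), were not among the 16 classes. They were too few in an ATV-TfR pool, so the genes closest to Slc7a11 were found without them. Ntsr2, F3 and Gjb6 are on the astrocyte marker list.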

How the data were processed

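The authors deposited raw UMI counts for each barcode in 1 sparse matrix, with no scaling, and the other deposited files (unit: other) name genes, barcodes and libraries. Per the submitters' processing notes the data were made with Cell Ranger 7.1.0 and Seurat 4 and 5 on mm10 (GRCm38). The capture end of the kit is not given in the sources used here. Every per-sample column was used (0 unused). Genome positions are from the GRCm38 annotation given with the data.

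Barcodes were kept (249715) if they reached 500 genes and 800 UMIs and did not exceed 10% mitochondrial UMIs, and 15689 doublets were removed with Scrublet (scanpy 1.11.5), in 8 libraries above percentile 94 of the score because the automatic threshold had failed. No pair of libraries shared more than 1.14% of its barcodes. Cells were clustered (Leiden, resolution 1, 50 components, 2000 variable genes without the 7 genes) into 28 clusters, some of them split again, and named by marker lists. Naming and zone thresholds were set after the clusters were seen. Endothelial-like cells were split into arterial and other cells alone, because the border between capillary and venous cells moved with the clustering. The arterial border moved as well, from 928 cells to 19035, 15104 and 15701 with seeds 1, 2 and 3. Tests without the arterial cells left out the 928.

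UMIs were summed per class and library (bins) or pool (treatments) and tested with edgeR 4.0.16 (quasi-likelihood test, TMM factors, filterByExpr, Benjamini-Hochberg adjustment over all genes tested, threshold 0.05, R 4.3.3), 1 mean per group and no covariates. Libraries and pools needed 20 cells of the class. Fold changes are log2. Each pool held both sexes, and comparisons had 2 pools a side. All groups of a class were fitted together, so the spread behind a p-value came also from groups outside the comparison. Without the block, bins of the same animals were treated as independent. Same-numbered bins of a treatment come from the same animals, so numbers pair the bins, and fits with the pool as a block were made. Across treatments numbers do not pair pools. The scripts were tested on simulated counts. Named were the 7 genes, the largest called rise and fall of each list in a comparison, and the 5 genes of nearest profile to each member except Slc7a6. The members and lists were chosen with earlier results of these data known. Alternatives were DESeq2 1.42.0, RLE factors, other filters on low counts, at least 50 cells, cells without 2 endothelial markers, no doublet removal, single bins, other seeds of the endothelial sub-clusters, removal of the arterial cells, the replicate block, means over cells and leaving out each replicate.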

Additional observations from a re-analysis of the deposited data

Results flagged for a closer look

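In astrocyte-like cells the medium minus negative change of Slc7a5 differed between the ATVs by 0.85 on the log2 scale (SE 0.23, adjusted p = 0.0328 by edgeR's quasi-likelihood test), the one difference of bin changes between the antibodies past the threshold among the 7 genes without a replicate block. The change was 1.10 in ATV-CD98hc and 0.26 in ATV-TfR, and each library's level is given above. Endothelial marker RNA reached 435.1 and 638.1 CPM in the ATV-CD98hc medium bins against 51.2 and 44.1 CPM in those of ATV-TfR. Without cells that held 2 endothelial markers the difference was 0.58 (adjusted p = 0.145). Without ATV-TfR replicate 1 or 2 or ATV-CD98hc replicate 2 the adjusted p was 0.248, 0.238 and 0.0647. The part of endothelial RNA in the difference was not tested further.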

How the results depend on the processing

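Genes called changed by over 1.5 times in the following settings of the main comparisons. High minus negative in endothelial-like cells: ATV-TfR 1525 (DESeq2), 1496 (replicate block) and 115 (without arterial cells), against 929; ATV-CD98hc 1321, 1008 and 189, against 647; their difference 5, 29 and, with no filter on low counts, 28, against 0. Medium minus negative in astrocyte-like cells gave 1192 (block), 1257 (no filter) and 366 (stricter filter) in ATV-TfR, and 1561 and 1547 (block, no filter) for the difference. In microglia-like cells ATV-TfR gave 638, 632 and 458 (DESeq2, block, no filter). ATV-CD98hc gave 421 with the stricter filter and 29 without cells with 2 endothelial markers. Their difference gave 31, 103, 105, 1 and 0 (DESeq2, block, no filter, stricter filter, without such cells). Non-arterial high minus low gave 1478, 2654 and 178 with the block (ATV-TfR, ATV-CD98hc, difference) and 41 with DESeq2 for the difference, against 923, 1475 and 6.

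Over endothelial-like pools, ATV-CD98hc minus ATV-TfR gave 10 (DESeq2), 22 (negative bins alone) and 726 (medium bins alone). ATV-CD98hc minus control IgG gave 89, 5 (block), 203 and 68, and ATV-TfR minus control IgG 186, 2, 356 and 87. Astrocyte-like pools gave 3474 (block), 67 and 3063. Microglia-like pools gave 25, 778, 919 (no filter), 119 (stricter filter), 137 (without cells with 2 endothelial markers), 1 and 202. In the smaller classes DESeq2 gave 156 against 13 in choroid plexus epithelial-like (12.2% of them rising, against 92.3%), 73 against 433 in neuron-like, 11 against 56 in smooth muscle-like, 71 against 204 in ependymal-like (85.9% rising, against 68.1%) and 1 against 5 in fenestrated endothelial-like cells, where it did not call Slc7a5. Replicate numbers do not pair pools of different treatments, whose deviations correlated at -0.617 to 0.377, and those of paired bins at -0.0123 to 0.904. With this pool block Slc3a2 was called in pericyte-like cells (adjusted p = 0.000721) and not in choroid plexus epithelial-like cells (adjusted p = 0.106).

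Signs turned in single bins. Medium bins gave Slc7a10 -2.21 and Slc7a11 -1.72 in endothelial-like cells (ATV-CD98hc minus ATV-TfR). Negative bins gave Slc7a5 -1.48 there against control IgG, Slc7a7 -0.23 and Slc7a8 -0.54 in astrocyte-like cells and Slc7a5 -0.43 in ependymal-like cells. The causes were not tested. In negative bins the leading share moved to 87.1% (Slc7a5, endothelial-like), 59.2% (Slc7a8, microglia-like), 22.2% (Slc7a10, oligodendrocyte-like), 18.1% (Slc7a5, pericyte-like), 95.4% (Slc7a11, fibroblast-like), 49.4% (Slc7a11, ependymal-like), 14.3% (Slc7a8, neuron-like) and 59.1% (Slc7a5, fenestrated endothelial-like). Without cells with 2 endothelial markers the Slc7a5 share was 14.7% in pericyte-like and 9.77% in smooth muscle-like cells, and with no doublet removal 24.4% in pericyte-like cells.

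Leaving out 1 pool gave 289 to 1256 (endothelial-like high minus negative, ATV-TfR), 302 to 656 (ATV-CD98hc) and 0 to 13 (difference), 182 to 1227, 1047 to 2430 and 161 to 1616 for the astrocyte-like and 33 to 473, 156 to 808 and 2 to 32 for the microglia-like bins. Endothelial-like pools gave 0 to 4, 0 to 68 and 0 to 64, astrocyte-like pools 772 to 2028, microglia-like pools 146 to 755, and non-arterial cells 317 to 1428, 1210 to 1544 and 0 to 68. A lone remaining pool was assumed to vary like the others. With RLE factors the rising share of called genes in endothelial-like high minus negative went from 31.9% to 18.4% (ATV-TfR) and from 29.7% to 18.9% (ATV-CD98hc), and the median of all genes from 0.16 to -0.02 and from 0.17 to 0.01. Of the differences of single members, 2130 stayed called or stayed not called, while 62 gained the call and 60 lost it with the same sign. In 6 the sign turned with a call in the main fit or the alternative. Turns of sign between values not called were not counted apart from the 2130. Not run were 50 cells per library for ATV-TfR medium microglia-like cells, the largest cluster alone for high minus negative, and high bins against control IgG. Negative bins held 50 to 77 endothelial-like cells of each ATV pool, and neutrophil-like, neuron-like and precursor-like pools as few as 20 cells, which limits what can be seen there.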
